A study of Mus musculus with 15 samples.

Results

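The EphA receptors and ephrin-A ligands were followed across sorted mouse thalamic cells of 5 groups. The members were 6 receptor genes (Epha3, Epha4, Epha5, Epha6, Epha7 and Epha8) and 4 ligand genes (Efna2, Efna3, Efna4 and Efna5), 10 of the 22180 genes on the array. They were chosen by symbol, through the probe annotation that names a single gene per transcript cluster (a set of probes for the transcripts of a locus). Each of the 10 had 1 such cluster. All 10 lay above the filter on low levels (5.07) by their mean over the 15 arrays, but some groups of Epha6, Epha8 and Efna4 lay close to it.

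All embryos were Gbx2CreER-IRES-EGFP/+::R26lsl-tdTomato/+ on a c57/BL6 background. Their Gbx2 locus drives both a tamoxifen-inducible Cre and EGFP, so green marks cells in which this thalamic homeobox gene is on or was on until recently. Red is tdTomato from the Rosa26 locus, which stays on in the descendants of cells that recombined after tamoxifen. Neither colour marks all thalamic neurons: red depends on when Cre was active, and green on the current activity of Gbx2. At E18.5, after 4 mg tamoxifen at E9, red, green and double-labelled (red and green) cells were sorted. At E14.5, after 4 mg at E9.5, red and green cells were sorted. Each group had 3 arrays, which the labels call biological replicates. The stages therefore also differ in the day of tamoxifen, and the effects of stage and tamoxifen day cannot be told apart.

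Eph receptors are tyrosine kinases at the cell surface, and ephrins are their membrane-bound ligands on neighbouring cells. Ephrin-A ligands are held in the membrane by a lipid anchor and bind mainly EphA receptors. Contact usually repels the growing axon, and ligands can also signal back into the cell that carries them. In the thalamus, graded EphA receptors on thalamic axons and graded ephrin-A ligands along their path and in the cortex are known to set which cortical area and which position an axon reaches.

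Promoter sequences are shown for the 3 members that differed between red and green cells at E14.5 (Epha3, Epha8 and Efna5) and for Epha5, which had the largest difference between stages. They are from RefSeq (GRCm38.p6), cover 250 bases before to 50 after the gene's start, and are written 5′ to 3′ on the gene's strand, which is the minus strand for all 4. Capitals mark matches on either strand to TAATTA, the core of many homeodomain sites, or to GGGCGG, the GC box, whose reverse complement reads CCGCCC. Neighbouring GC boxes can overlap.
Epha3, chr16:63864126-63864425: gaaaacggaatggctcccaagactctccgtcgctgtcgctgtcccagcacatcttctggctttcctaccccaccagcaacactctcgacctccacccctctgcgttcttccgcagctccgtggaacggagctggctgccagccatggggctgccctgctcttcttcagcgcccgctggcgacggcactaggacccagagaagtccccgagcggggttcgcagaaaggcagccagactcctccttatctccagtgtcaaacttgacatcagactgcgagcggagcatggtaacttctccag
Epha8, chr4:136956767-136957066: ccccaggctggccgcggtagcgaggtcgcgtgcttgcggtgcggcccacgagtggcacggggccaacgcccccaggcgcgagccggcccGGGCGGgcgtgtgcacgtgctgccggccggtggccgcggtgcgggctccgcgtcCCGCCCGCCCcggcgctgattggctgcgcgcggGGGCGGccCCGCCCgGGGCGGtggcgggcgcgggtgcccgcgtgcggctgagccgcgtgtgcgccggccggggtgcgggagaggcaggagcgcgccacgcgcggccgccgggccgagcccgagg
Efna5, chr17:62881268-62881567: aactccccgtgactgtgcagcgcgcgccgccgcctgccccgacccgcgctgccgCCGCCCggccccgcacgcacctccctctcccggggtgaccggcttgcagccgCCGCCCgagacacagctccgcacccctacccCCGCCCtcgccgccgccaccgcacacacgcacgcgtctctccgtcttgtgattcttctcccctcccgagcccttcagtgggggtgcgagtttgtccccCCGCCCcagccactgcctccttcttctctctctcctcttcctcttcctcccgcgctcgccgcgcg
Epha5, chr5:84417333-84417632: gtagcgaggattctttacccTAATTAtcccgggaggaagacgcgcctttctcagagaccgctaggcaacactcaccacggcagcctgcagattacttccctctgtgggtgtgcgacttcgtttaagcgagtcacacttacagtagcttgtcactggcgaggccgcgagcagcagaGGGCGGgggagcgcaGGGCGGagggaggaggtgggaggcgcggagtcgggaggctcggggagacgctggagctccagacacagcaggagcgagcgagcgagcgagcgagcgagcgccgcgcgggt

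The Epha3 window held neither motif. GC boxes numbered 6 in the Epha8 window, 4 in that of Efna5 and 2 in that of Epha5, and 35.7% of all 32851 promoter windows held at least 1. TAATTA was found once, in the Epha5 window, and 5.29% of all windows held it. TATAAA, the TATA box, was found in none of the 12 windows of the 10 members and in 13.6% of all windows. The G and C content was 60.7% for Epha3, 84.3% for Epha8, 73.3% for Efna5 and 64.3% for Epha5, beside a median of 52.7% over all windows. In gene order Efna3 lies between Efna1 and Efna4 on chromosome 3, and the other 8 members have no Eph or ephrin gene as the next protein-coding gene.

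Levels are log2 signals, and a level of 1 member is never set against that of another, because probes differ in how they bind. The mean of all values was 6.17 to 6.19 in the 9 E18.5 arrays and 5.63 to 5.65 in the 6 E14.5 arrays. Within a stage the deposited values were compared, and between stages values put on a common distribution by quantile normalization. Replicate 1 of the E18.5 red cells and replicate 1 of the double-labelled cells spread less (SD of all values 1.34 and 1.31) than the other 7 E18.5 arrays (1.44 to 1.51), and are called the narrow-range arrays. The thalamic label was checked with 10 markers of thalamic neurons. Gbx2, whose locus drives the EGFP used for sorting, was among them. The mean level of the 10 was 8.43 to 8.61 in the E14.5 arrays. At E18.5 it was 9.41 to 9.56 in green, 9.07 to 9.38 in double-labelled and 8.61 to 8.89 in red arrays. These are deposited levels, which include the shift of all values, so they do not compare the stages. After quantile normalization the list's median difference, E18.5 minus E14.5, was -0.31 in red and -0.04 in green cells. Lists of microglial, endothelial, oligodendrocyte-lineage and cortical genes had mean levels from 4.68 to 6.16 in every array, and Cldn5, Tek and Pdgfra among them lay below the filter. Single genes could lie higher, such as the microglial gene Cx3cr1, with group means from 6.09 to 7.23. The progenitor and radial glia list had mean levels from 6.54 to 7.39. Because probes differ, these levels do not measure the purity of the sorted cells. The precision of each value is limited by 3 arrays per group, and the p-values come from the spread between arrays.

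**Figure D1:**
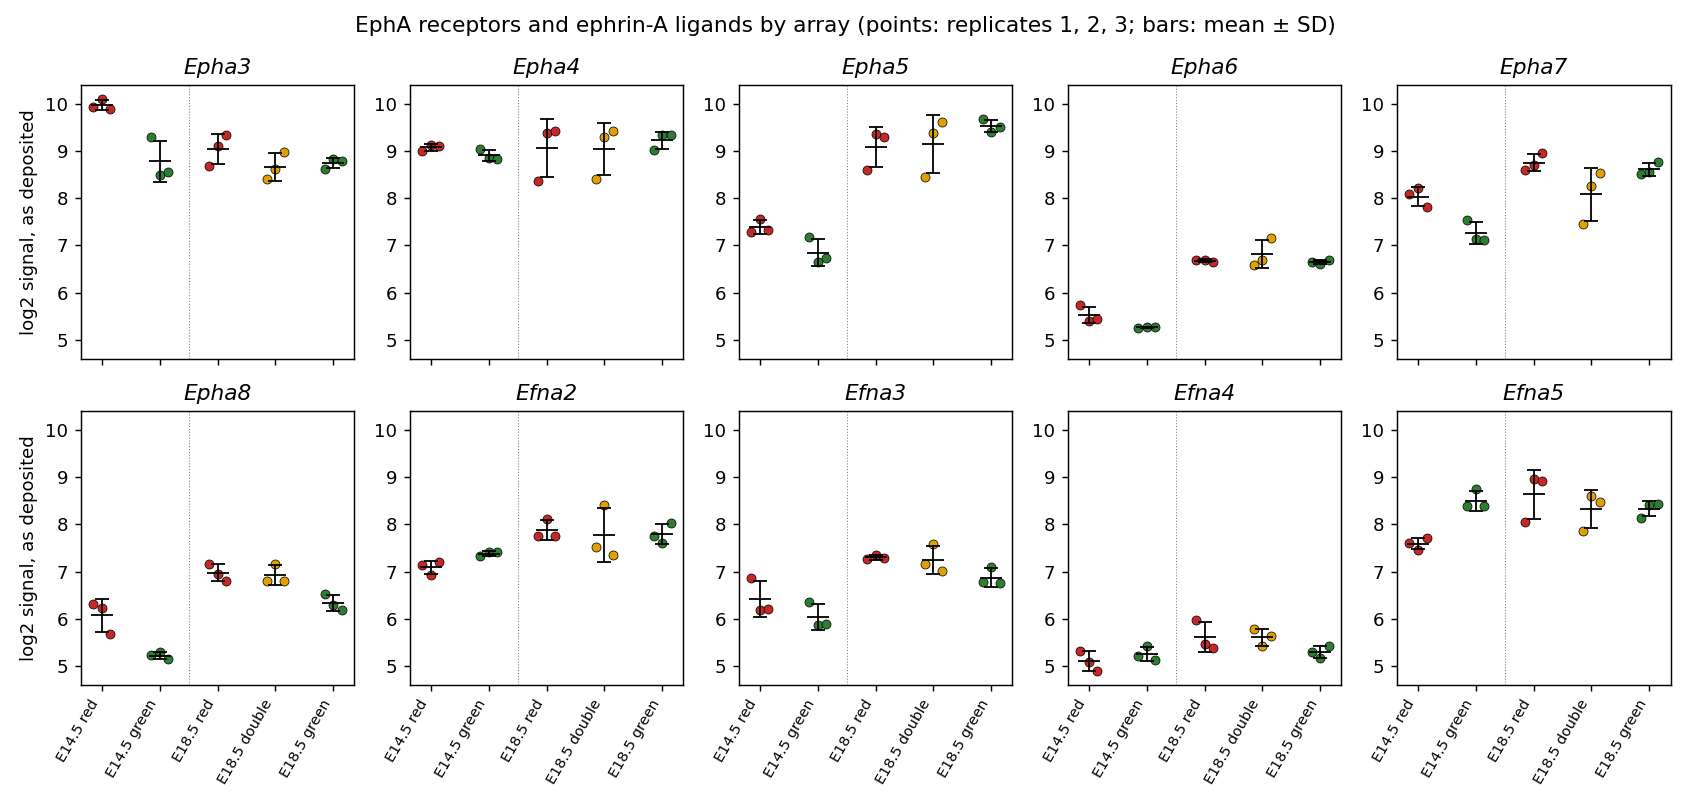
Deposited log2 signal of the 10 members (vertical axes) in the 5 groups (horizontal axes), with 1 point per array in the order of replicates 1 to 3 and bars for mean and SD. At E14.5 all 3 red arrays lie above all 3 green arrays for Epha3 and Epha8 and below them for Efna5; the stages carry a shift of all values.

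Among the members, red and green cells at E14.5 differed in 2 receptors in one direction and in 1 ligand in the other. The call of Epha3 alone held with each array left out in turn. Epha3 was 2.30-fold higher in red cells and Epha8 1.80-fold higher, while Efna5 was 1.88-fold lower. By limma 3 of 10 members passed an adjusted p of 0.05, 2 higher and 1 lower, where 3.52% of the 16635 genes tested did (1.89% higher and 1.64% lower in red). Groups that did not overlap were seen for 7 of 10 members, Epha3, Epha5, Epha6, Epha7 and Epha8 higher and Efna2 and Efna5 lower in red, against 27.9% of all genes (13.7% higher and 14.1% lower). An unadjusted p under 0.05 was reached by 4 of 10, the 3 called and Epha7, beside 11.9% of all genes. In sorted bulk samples, more cells with a transcript and more transcript per cell cannot be told apart.

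Epha3, a receptor bound with high affinity by ephrin-A5, stood at 9.93, 10.11 and 9.90 in the E14.5 red arrays and at 9.29, 8.50 and 8.56 in the green arrays. Every red array lay above every green one, and green replicate 1 lay closer to the red arrays than the other 2. The log2 difference was 1.20 (SE 0.21, 95% interval 0.74 to 1.66), with an adjusted p of 0.0053 by limma. It was 1.45 without green replicate 1 and passed without each of the 6 arrays in turn (adjusted p at most 0.043).

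Epha8, another EphA receptor of the young nervous system, stood at 6.31, 6.23 and 5.67 in red and at 5.24, 5.29 and 5.14 in green arrays. The red arrays were all higher, and red replicate 3 was the lowest of them. The green arrays lay close to the filter's cutoff of 5.07, so the size of the difference is uncertain. The difference was 0.85 on the log2 scale (SE 0.17, 95% interval 0.49 to 1.21), with an adjusted p of 0.011 by limma. The call was lost without red replicate 1 (adjusted p 0.066), red replicate 2 (0.065) or green replicate 3 (0.067).

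Epha7 is a receptor with known splice forms that lack the kinase domain. Its level was 8.09, 8.21 and 7.81 in red and 7.53, 7.14 and 7.12 in green arrays at E14.5, with no overlap. The difference of 0.77 (SE 0.22) had an adjusted p of 0.091 by limma and did not pass. It passed under 5 of 14 alternatives and not under the other 9. Among the 5 were the 6 E14.5 arrays alone (adjusted p 0.012) and the fit without the narrow-range arrays (0.0035).

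Epha5, which binds several ephrin-A ligands, stood at 7.29, 7.57 and 7.32 in red and 7.18, 6.65 and 6.73 in green arrays at E14.5. The groups did not overlap, but green replicate 1 came close to the red arrays. The difference was 0.54 (SE 0.27, 95% interval -0.03 to 1.11, adjusted p 0.48 by limma), and without the narrow-range arrays it passed at an adjusted p of 0.027. Epha6 differed by 0.26 (SE 0.13) and did not pass (adjusted p 0.51), with red arrays from 5.41 to 5.73 and green arrays from 5.26 to 5.28. Epha4, which binds ephrins of both the A and the B class, had overlapping groups, with 9.08 ± 0.07 (SD, n = 3) in red and 8.91 ± 0.12 in green cells. The differences of the 6 member receptors ran from 0.18 to 1.20, all towards red, with a median of 0.65 where the median of all genes was 0.00.

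Efna5 encodes ephrin-A5, a ligand known for patterning thalamocortical maps. It stood at 7.61, 7.46 and 7.71 in red and at 8.39, 8.74 and 8.38 in green arrays at E14.5. All red arrays were lower, by -0.91 on the log2 scale (SE 0.24, 95% interval -1.41 to -0.40), with an adjusted p of 0.049 by limma. That lay at the threshold, and without 1 of the 6 arrays in turn the adjusted p was 0.091 to 0.24 and the call was lost each time. It was 0.15, 0.20 and 0.095 on leaving out red arrays 1, 2 and 3, and 0.091, 0.24 and 0.13 on leaving out green arrays 1, 2 and 3. In the E14.5 arrays alone the adjusted p was 0.0033, and with the narrow-range arrays left out it was 0.00037.

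The remaining ligands did not pass at E14.5. Efna2, whose product ephrin-A2 works together with ephrin-A5 in visual maps, was at 6.93 to 7.20 in red and 7.32 to 7.42 in green arrays (difference -0.29, SE 0.22, adjusted p 0.78 by limma). Efna3 differed by 0.38 (SE 0.20) and Efna4 by -0.16 (SE 0.16), both with overlapping groups. The median of the 4 ligands was -0.22.

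Markers of cell identity differed in the same comparison. Of the 10 thalamic markers, Lhx2 (log2 difference -1.03, adjusted p 0.0096) and Lhx9 (-0.89, 0.0016), LIM-homeobox factors, were lower in red cells, and the nuclear receptor Rora (1.06, 0.0027) was higher by limma. Gad2, a GABA-synthesising enzyme, was higher (0.82, adjusted p 0.014), 1 of 8 GABAergic and prethalamic genes tested, and the mean of that list was 5.78 to 6.06 in red and 5.55 to 5.74 in green arrays. Of 9 progenitor and radial glia genes, the glutamate transporter Slc1a3 was higher (1.01, adjusted p 0.0052) and Nes, an intermediate filament of progenitors, lower (-0.54, 0.035). The part of these differences in those of Epha3, Epha8 and Efna5 was not tested. The habenular, oligodendrocyte-lineage, microglial, endothelial and cortical lists had 0 genes past limma's threshold in this comparison.

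**Figure D2:**
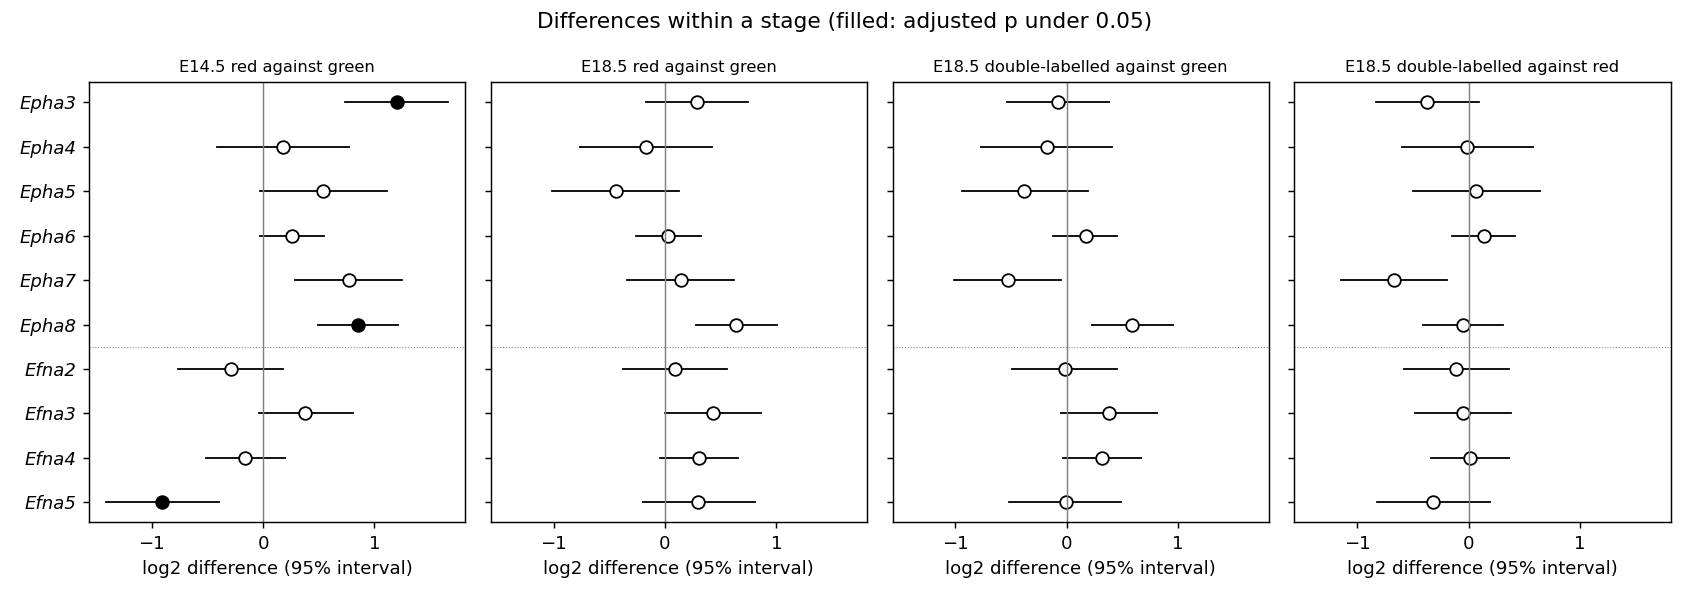
Log2 difference of each member (vertical axis, receptors above the dotted line and ligands below) in the 4 comparisons within a stage, with 95% intervals from the limma fit; filled points passed an adjusted p of 0.05. Filled points appear in the E14.5 panel alone: Epha3 at 1.20, Epha8 at 0.85 and Efna5 at -0.91.

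At E18.5 none of the 10 members passed between red and green cells by limma, where 0.613% of all genes did. An unadjusted p under 0.05 was reached by 2 of 10, beside 10% of all genes, and 3 had groups that did not overlap (Efna3 and Epha8 higher and Epha5 lower in red), against 15.3% of all genes (6.14% higher and 9.11% lower). Epha8 stood at 7.16, 6.95 and 6.81 in red and 6.52, 6.29 and 6.18 in green arrays. The groups were separate, and the difference of 0.64 (SE 0.17, 95% interval 0.28 to 1.01) had an unadjusted p of 0.0019 and an adjusted p of 0.15. Efna3 was at 7.26, 7.36 and 7.28 in red and 6.77, 7.10 and 6.75 in green arrays, a difference of 0.43 (SE 0.20, adjusted p 0.50). Epha5 lay the other way, at 8.60, 9.36 and 9.30 in red and 9.67, 9.41 and 9.51 in green arrays (difference -0.44, SE 0.27, adjusted p 0.55). After quantile normalization the Epha5 groups overlapped, at 8.66 to 9.06 in red and 8.99 to 9.38 in green cells.

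For 4 members red replicate 1, a narrow-range array, stood apart from the other red arrays at E18.5. Epha4 was 8.36 there and 9.39 and 9.42 in the others, Epha5 8.60 beside 9.36 and 9.30, and Efna5 8.04 beside 8.97 and 8.91. Efna4 ran the other way, at 5.97 beside 5.46 and 5.38. Efna5 levels in green cells were 8.14, 8.42 and 8.44, so that the remaining red arrays were higher than all green ones. Its difference was 0.30 (SE 0.24, adjusted p 0.61) with all arrays and 0.60 (adjusted p 0.042) without both narrow-range arrays.

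Double-labelled cells at E18.5 were set against green and against red cells, and 0 of 10 members passed in either by limma, where 0.0361% and 0.0902% of all genes did. An unadjusted p under 0.05 was reached by 2 members (Epha7 and Epha8) against green, beside 5.7% of all genes, and by 1 (Epha7) against red, beside 4.52%. Epha8 was at 6.80, 7.16 and 6.80 in double-labelled arrays, above the 6.18 to 6.52 of green cells by 0.59 (SE 0.17, adjusted p 0.53) and within 0.05 of red cells in the mean (95% interval of the difference -0.41 to 0.31). Epha7 was at 7.46, 8.25 and 8.54 in double-labelled arrays, below the 8.60, 8.70 and 8.95 of red cells. Its difference from red cells was -0.67 (SE 0.22, unadjusted p 0.010, adjusted p 0.73) in limma's fit, which did not pair arrays by number. With replicate number as a block no member passed in this comparison either. The lowest Epha7 value was in the narrow-range array, and the difference was -0.43 without the narrow-range arrays. Non-overlapping groups were seen for Epha8 and Efna4 against green (8.15% of all genes) and for Epha7 against red (4.18%). Limma's F test across the 3 populations passed 0 of 10 members and 0.427% of all genes, with Epha8 the closest (unadjusted p 0.0031, adjusted p 0.23).

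At E18.5 the targeted locus itself differed between populations, with Gbx2 at 6.35 ± 0.86 in red, 8.33 ± 0.29 in double-labelled and 8.43 ± 0.17 in green cells. Cells were sorted by EGFP from this locus, so Gbx2 levels are not independent of the sort. The part of the sorting in that difference was not tested. Of 8 habenular genes tested, 2 had higher levels in red cells than in green by limma, Chrnb3, a nicotinic receptor subunit (1.65), and Nr4a2, a nuclear receptor (1.26). The list's median was 0.10, and Chrna3 (-0.47) and Tac1 (-0.46) lay the other way without passing. Of 8 GABAergic and prethalamic genes, Sp9 alone was higher (0.88), with a list median of 0.26. Of the thalamic markers, Lhx9 (-0.99) and Calb2 (-2.41), a calcium-binding protein, were lower and Lef1 (0.82), a Wnt-responsive factor, was higher in red than in green cells. Their part in the Epha8 values was not tested.

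Between E14.5 and E18.5 the receptors moved in both directions. Epha5 was 2.18-fold higher at E18.5 in red cells and 3.92-fold higher in green cells, and Epha3 was 2.74-fold lower in red and 1.60-fold lower in green cells. Efna5 was 1.37-fold higher in red and 1.77-fold lower in green cells. After quantile normalization, 5 of 10 members passed in red cells, 3 higher and 2 lower, where 27.5% of all genes did (12.8% higher and 14.7% lower). In green cells 6 of 10 passed, 3 higher and 3 lower, where 33.9% of all genes did (15.7% and 18.1%). Groups that did not overlap were seen for 5 members in red cells, against 40.9% of all genes, and for 8 in green cells, against 60.1%. As deposited, the median of all genes was 0.60 higher at E18.5 in red and 0.61 higher in green cells, and -0.03 after quantile normalization, so each change is read relative to that shift.

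Epha5 on the quantile-normalized scale was 7.68, 8.05 and 7.63 at E14.5 and 8.66, 9.06 and 9.02 at E18.5 in red cells. In green cells it was 7.53, 7.03 and 7.09 at E14.5 and 9.38, 8.99 and 9.18 at E18.5. All later arrays were higher than all earlier ones, by 1.12 (SE 0.20, adjusted p 0.0011) in red and 1.97 (SE 0.20, adjusted p 6.1e-06) in green cells by limma. As deposited the differences were 1.70 and 2.67, above the shift of all genes.

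Epha6, an EphA receptor of the nervous system, was 5.78 to 6.11 at E14.5 and 6.36 to 6.45 at E18.5 in red cells. The rise was 0.50 (SE 0.13, adjusted p 0.0094) in red and 0.69 (SE 0.13, adjusted p 0.00088) in green cells, where the arrays went from 5.67 to 5.71 up to 6.34 to 6.41. Epha7 rose in green cells, from 7.88, 7.49 and 7.46 to 8.22, 8.17 and 8.46, by 0.67 (SE 0.18, adjusted p 0.012). That call was lost without E18.5 green replicate 3 (adjusted p 0.054) and without E14.5 green replicate 3 (0.052), and with array medians centred (0.052). In red cells Epha7 differed by 0.15 (SE 0.18, adjusted p 0.59). Epha8 did not pass in red (0.27, SE 0.17, adjusted p 0.27) or green cells (0.44, SE 0.17, adjusted p 0.063).

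Epha3 was 10.25, 10.49 and 10.21 at E14.5 and 8.75, 8.80 and 9.05 at E18.5 in red cells, with no overlap. In green cells it went from 9.55, 8.82 and 8.90 to 8.32, 8.43 and 8.48. The fall was -1.45 (SE 0.18, adjusted p 6.7e-05) in red and -0.68 (SE 0.18, adjusted p 0.0089) in green cells. The deposited values gave -0.95 and -0.04, where the median of all genes was 0.60 and 0.61. With array medians centred the green difference was -0.66 and no longer passed (adjusted p 0.055). Epha4 fell in red cells (log2 difference -0.59, SE 0.19, adjusted p 0.033), from 9.39, 9.59 and 9.42 to 8.38, 9.10 and 9.14. The lowest array was the narrow-range one, and without it the difference was -0.35 (adjusted p 0.11). Without both narrow-range arrays it was also -0.35 and passed (adjusted p 0.029). The Epha4 call was also lost without E14.5 red replicate 1 (0.061), 2 (0.10) or 3 (0.066), with array medians centred (0.14) and as deposited (-0.03, adjusted p 0.93). In green cells Epha4 differed by -0.32 (SE 0.19, adjusted p 0.22) after quantile normalization and by 0.32 as deposited, below the shift of all genes.

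Among the ligands, Efna5 in red cells was 8.01, 7.94 and 8.04 at E14.5 and 8.04, 8.67 and 8.63 at E18.5. The lowest E18.5 value, in the narrow-range array, was just above the highest at E14.5. The rise was 0.45 (SE 0.16, adjusted p 0.048), and 0.66 without the narrow-range arrays (adjusted p 0.00075). It was lost without E18.5 red replicate 2 (adjusted p 0.16) or 3 (0.16) and without E14.5 red replicate 1 (0.099), 2 (0.12) or 3 (0.087), and with array medians centred (0.37). In green cells Efna5 fell from 8.72, 9.06 and 8.70 to 7.85, 8.03 and 8.12, with no overlap (-0.83, SE 0.16, adjusted p 0.0012), and the deposited values, with the shift of all genes, gave -0.17.

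Efna4 in green cells fell from 5.62, 5.83 and 5.54 to 5.10, 5.01 and 5.21, by -0.56 (SE 0.14, adjusted p 0.0061). The deposited difference was 0.04, where the median of all genes was 0.61. The deposited green values lay close to the filter's cutoff of 5.07 at both stages, from 5.13 to 5.42 at E14.5 and from 5.16 to 5.42 at E18.5. The size of this fall is therefore uncertain. In red cells Efna4 differed by -0.14 (adjusted p 0.48) after quantile normalization and by 0.51 (adjusted p 0.013) as deposited, below the median of 0.60 for all genes. Efna2 and Efna3 did not pass in either population, with differences from -0.25 to 0.26.

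Some cell-type markers also passed between the stages by limma, where 27.5% of all genes did in red and 33.9% in green cells. In green cells 5 of 9 progenitor and radial glia genes were lower at E18.5 and 0 higher, among them Nes (-1.23) and the stem-cell factor Sox2 (-0.72). In red cells 2 were higher and 3 lower. Of 8 GABAergic and prethalamic genes, 4 were lower and 1 higher in red cells, with Isl1, a LIM-homeobox factor, at -1.32, and 1 was lower and 1 higher in green cells. Of the 10 thalamic markers, 3 were lower and 1 higher in red cells, with Gbx2 at -1.61, and 2 were lower and 2 higher in green cells. In green cells the thalamic and GABAergic counts were near the share of all genes called. The part of these differences in those of the members was not tested.

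**Figure D3:**
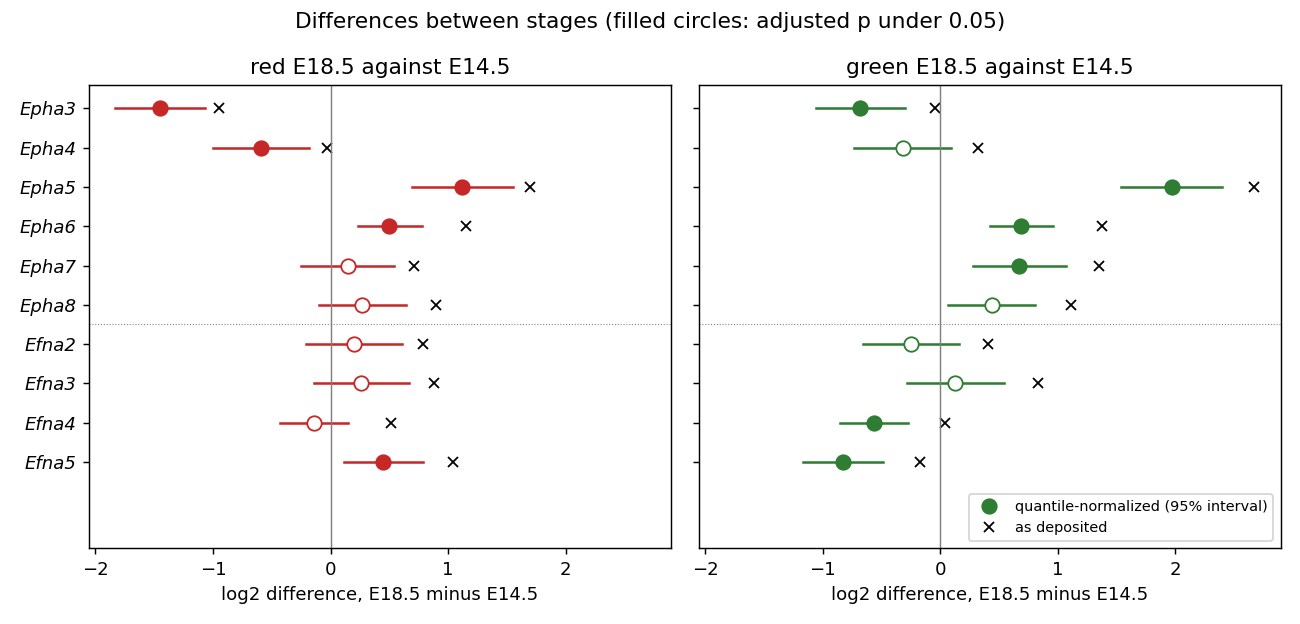
Log2 difference of each member (vertical axis) between E18.5 and E14.5 (horizontal axis) in red cells (left) and green cells (right). Circles with 95% intervals are quantile-normalized values, filled where the adjusted p was under 0.05, and crosses are deposited values, which carry the shift of 0.60 to 0.61; Epha5 has the largest rise in both panels.

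The change of the red-green difference from E14.5 to E18.5 was tested directly, and 0 of 10 members passed by limma, where 1.05% of all genes did. An unadjusted p under 0.05 was reached by 3 of 10 (Efna5, Epha3 and Epha5), beside 8.96% of all genes. For Efna5 the difference went from -0.91 at E14.5 to 0.30 at E18.5, a change of 1.21 (SE 0.33, 95% interval 0.50 to 1.93, unadjusted p 0.0027, adjusted p 0.12). The Efna5 change passed after quantile normalization (1.28, adjusted p 0.011) and without the narrow-range arrays (1.51, adjusted p 0.00061). Leaving out E18.5 red replicate 1 alone was enough for it to pass (1.51, adjusted p 0.013). For Epha3 the red-green difference was 1.20 at E14.5 and 0.29 at E18.5, a change of -0.91 (SE 0.30, adjusted p 0.25). Without E14.5 green replicate 1 that change was -1.16, with an adjusted p of 0.050 that just passed. For Epha5 it went from 0.54 to -0.44, a change of -0.98 (SE 0.38, adjusted p 0.37). Epha8 was higher in red cells at both stages, by 0.85 and 0.64, and the change of -0.21 had a 95% interval of -0.72 to 0.31.

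**Figure D4:**
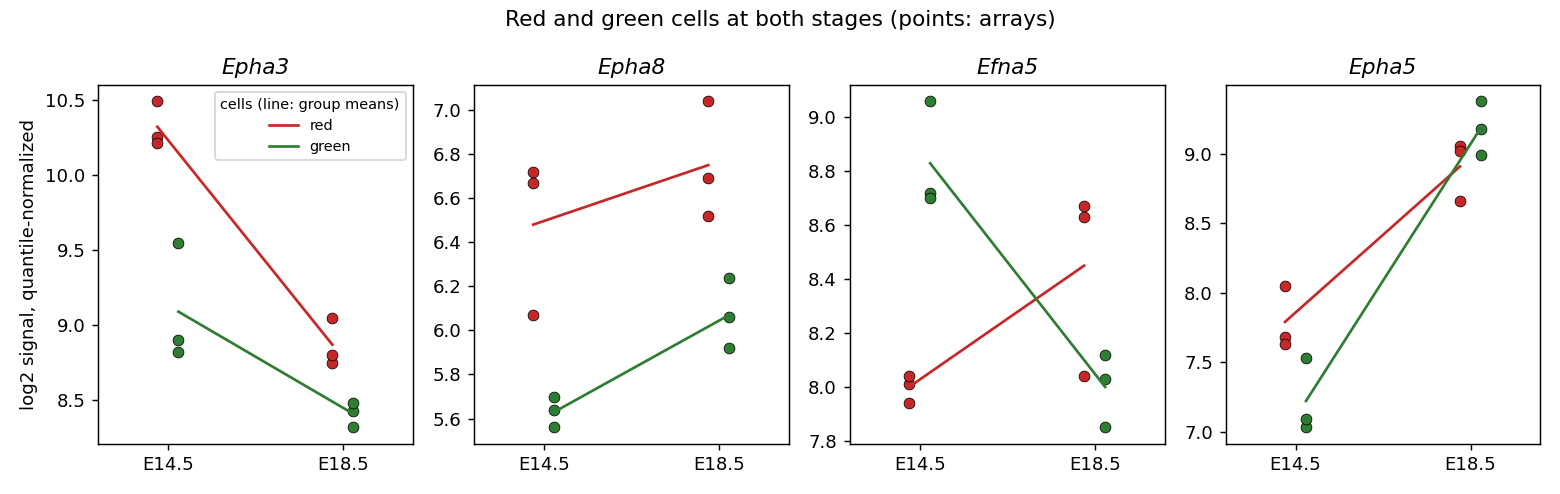
Quantile-normalized log2 signal (vertical axes) of Epha3, Epha8, Efna5 and Epha5 in red and green cells at E14.5 and E18.5 (horizontal axes), with 1 point per array and lines between group means. The Efna5 lines cross, from 8.0 in red and 8.83 in green cells at E14.5 to 8.45 and 8.0 at E18.5, and the Epha8 lines run side by side.

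Over the 5 groups on the quantile-normalized scale, Epha3 was highest in E14.5 red cells (10.32 ± 0.15, SD, n = 3), followed by E14.5 green (9.09 ± 0.40), E18.5 red (8.87 ± 0.16), double-labelled (8.45 ± 0.23) and E18.5 green cells (8.41 ± 0.08). The E14.5 red arrays lay above the E14.5 green arrays, and the E18.5 red arrays above the double-labelled ones, while E14.5 green overlapped E18.5 red and double-labelled overlapped E18.5 green. Efna5 was highest in E14.5 green cells (8.83 ± 0.20), then E18.5 red (8.45 ± 0.35), double-labelled (8.11 ± 0.14), and at 8.0 in both E18.5 green (± 0.13) and E14.5 red cells (± 0.05). The red and double-labelled means at E18.5 lay within the spread of red cells. Epha8 was 6.75 ± 0.26 in E18.5 red, 6.66 ± 0.14 in double-labelled and 6.48 ± 0.36 in E14.5 red cells, which overlapped. It was 6.07 ± 0.16 in E18.5 green cells, whose arrays overlapped those of E14.5 red, and 5.63 ± 0.07 in E14.5 green cells, below all others. Epha5 was 8.91 to 9.19 in the means of the 3 E18.5 groups, 7.79 ± 0.23 in E14.5 red and 7.22 ± 0.27 in E14.5 green cells. Double-labelled cells were not tested against E14.5 cells, nor red of one stage against green of the other.

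Other genes of the pathway were taken from a fixed list. Of 10 other Eph and ephrin genes tested, Efnb2, which encodes the ligand ephrin-B2, alone passed between red and green cells at E14.5, at 5.71 ± 0.19 in red and 6.95 ± 0.16 in green cells (log2 difference -1.25, SE 0.22, adjusted p 0.0059 by limma). Efna1, the neighbour of Efna3, differed by 0.00 there, and the median of the 10 was -0.02. The EphA receptors among them, Epha1 and Epha10, differed by 0.00 and 0.11 without passing. Of 33 signalling partners and coreceptors, 2 were higher and 1 lower in E14.5 red cells, with a median of -0.01. Ntrk2, the BDNF receptor TrkB and a partner of ephrin-A ligands in axons, was 2.65-fold higher (7.48 ± 0.10 against 6.07 ± 0.38, adjusted p 2e-04). Vav3, an exchange factor for small GTPases that acts after Eph receptors, was 2.23-fold lower (7.05 ± 0.11 against 8.21 ± 0.13, adjusted p 0.00068). Anks1b, an adaptor protein, was the other higher gene.

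At E18.5 none of the 10 other Eph and ephrin genes and none of the 33 partners passed limma's threshold in the 3 comparisons between populations. Between stages, 2 of the 10 other Eph and ephrin genes were higher at E18.5 in red cells (Epha10 and Ephb1) and 3 in green cells (Epha1, Ephb1 and Ephb6), and 0 were lower. Of the 33 partners, 6 were higher and 5 lower in red, and 6 higher and 6 lower in green cells, beside 27.5% and 33.9% of all genes called. Ret, a receptor tyrosine kinase that ephrin-A ligands use to signal in reverse, rose by 0.86 in red cells (adjusted p 0.00036), and Ngef, the exchange factor ephexin that links EphA receptors to RhoA, by 0.64 (adjusted p 0.0015). Anks1, an adaptor of EphA receptors, fell by 0.81 in red cells (adjusted p 0.0012). In green cells Ntrk2 rose by 1.64 (adjusted p 9.5e-06), Anks1b rose by 1.05 (0.00015) and Vav3 fell by 1.05 (2.5e-05). Several of these genes passed in both populations. Ret, Ngef and Anks1 also passed in green cells, with quantile-normalized means going from 5.55 to 6.32, 5.61 to 6.36 and 7.7 to 6.91. Ntrk2 and Vav3 also passed in red cells, where both rose, from 7.87 to 8.53 and from 7.44 to 7.83. Vav3 thus moved in opposite directions in red and green cells.

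The genes most like the 3 members called at E14.5 were looked up by Pearson's r over the 9 E18.5 arrays, which include the narrow-range arrays and share their normalization, as a description with no test. For Epha3 they were Lgi2 (r 0.917), Fat3 (0.905) and Tgfb2 (0.901). For Epha8 they were the chemokine gene Cxcl12 (0.982), Slc12a5, the neuronal chloride exporter (0.958), and Cbfa2t3 (0.934). For Efna5 they were Pdp1 (0.983), Tgfb2 (0.967) and Atrnl1 (0.963). Over the 7 arrays without the narrow-range ones, r was 0.882 to 0.99 for these 9 pairs. Those 7 arrays are among the 9 by which the pairs were picked, so this range is no separate check.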

How the data were processed

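The labels give 10 ng of RNA per sorted sample for amplification (Ovation Pico WTA, Nugen), with 15 samples in all. For each transcript cluster the authors deposited a log2 signal, from 4.15 to 13.2, made in Affymetrix Expression Console per the submitters' processing notes; version and algorithm are not given in the sources used here. Of 33794 clusters, 23521 named 1 gene, 1814 several and 8459 none. The cluster with the highest mean was kept per gene (22180 genes), and genes in the lowest 25% by mean (below 5.07) were dropped, which left 16635.

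One mean per group was fitted over the 15 arrays in limma 3.58.1 (R 4.3.3), with 10 residual and 13.9 moderated degrees of freedom, on deposited values within a stage and for its change between stages, and on values quantile-normalized over the 15 arrays between stages. Tests were two-sided, adjusted by Benjamini and Hochberg over 16635 genes, with a threshold of 0.05. The fit was run on simulated data with independent noise and planted changes larger than any member's difference within a stage. Those data held no stage shift, narrow-range arrays or correlation between arrays, so they do not test the fit under these features. Alternatives covered the normalization, filter, row per gene, replicate block, array weights and each array left out. Plots used matplotlib 3.10.9 under Python 3.11.15.

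All members were named, with up to 3 other pathway genes per comparison by smallest adjusted p past the threshold, and 3 pattern neighbours for each of up to 3 members called within a stage. Neighbours were taken after leaving out, by symbol, predicted genes, clones, small RNAs, pseudogenes and olfactory, vomeronasal and antigen receptor genes. Marker genes, Anks1b at E14.5 and the other Eph genes were named after their values were seen. Members and lists were chosen with earlier results of these data known. Some genes of the lists were not analysed here. All 10 members matched RefSeq by Entrez identifier.

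Deviations from group means correlated between arrays of the same number at 0.487 to 0.669 for E18.5 red with double-labelled cells. By these data alone they are taken as paired by number, and the highest value joined both narrow-range arrays. The differences given for double-labelled against red cells come from the fit without pairing. The replicate block changed no member's call in that comparison. For the other pairs of groups the lowest such correlation was 0.0474, and the number was not treated as a pairing.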

Additional observations from a re-analysis of the deposited data

Results flagged for a closer look

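Epha5 drew attention because all E14.5 red arrays lay above all green ones and all E18.5 red arrays below all green ones in the deposited values. The change of its red-green difference was -0.98 on the log2 scale, and limma's test of that change gave an adjusted p of 0.37. After quantile normalization the E18.5 groups overlapped.

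Among the partners of Eph signalling, 3 genes had a red-green difference that changed between stages by limma. The change was 1.38 for Vav3 (adjusted p 0.0056), -1.17 for Ntrk2 (0.022) and -0.91 for Anks1b (0.025). Vav3 passed under all 19 alternatives run, Ntrk2 under 11 and Anks1b under 10.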

How the results depend on the processing

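Epha3 at E14.5 kept its direction and call under all 14 alternatives, with log2 differences from 1.06 to 1.45. Epha8 kept its call under 11 of 14 (0.73 to 1.05) and Efna5 under 5 of 14 (-0.97 to -0.79), losing it also with array medians centred (adjusted p 0.12), no filter (0.071) and every transcript cluster its own row (0.051). The number of members called at E14.5, 3 of 10, was 5 without the narrow-range arrays, 7 with array weights, whose estimation did not converge, and 1 to 2 with 1 array left out. That range was 3 to 4 for red cells between stages (5 with all arrays), 5 to 6 for green cells (6), 0 to 1 for the change between stages (0) and 0 in the E18.5 comparisons.

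Array weights gave 2 members in double-labelled against green, 1 in double-labelled against red, 3 in the F test and 1 in the change between stages, where 0 passed. The latter was also 1 without the narrow-range arrays and 1 with quantile-normalized values. Red against green at E18.5 had 1 without the narrow-range arrays. With replicate number as a block, 1 member passed in E18.5 red against green (Epha8, adjusted p 0.048) and 1 in the change between stages (Efna5, 0.012). Epha7 at E14.5 also passed with that block (0.77, adjusted p 0.018). At E14.5 every array correlated best with its own number, a hint from the data and not from the design; at E18.5 red and double-labelled replicate 3 correlated best with green replicate 2.

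In red cells between stages, 9 members passed as deposited and 3 with array medians centred, instead of 5. The deposited values include the shift of all genes, 0.60 in red and 0.61 in green cells, and Efna4, at 0.51 and 0.04 there, changed sign but lay below that shift. For the other changes the cause was not tested. The 3 arrays per group limit the precision. Over all alternatives, the genes called ranged from 12 to 234 for E18.5 red against green (102), 0 to 1110 for double-labelled against green (6), 4 to 446 against red (15), 6 to 1394 in the F test (71) and 247 to 2523 at E14.5 (586). Between stages they ranged from 3414 to 12041 in red (4579), 4307 to 12226 in green (5635) and 76 to 644 for the change (175).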
